A study of Mus musculus with 6 samples.

Results

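The microarray carried 1137 probes for annotated non-coding RNAs on autosomes, out of 55681 probes in all. A probe belonged here when its target was a RefSeq transcript with an NR accession, the prefix that RefSeq gives to transcripts without a coding sequence, and H19 and Meg3 were left out. These probes stood for 1011 transcripts under 1002 names. Each probe was put in a single class by its array name and RefSeq annotation. The largest class, 866 probes, held cDNA or predicted-gene names on the array, some with another name in RefSeq, such as Lockd and Dubr. Pseudogenes had 93 probes, antisense or opposite-strand names 78, other gene symbols 57 and hosts of small RNAs 23. A set of named long non-coding RNAs (lncRNAs) had 11 and structural small RNAs had 9.

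Long non-coding RNAs are transcribed like mRNAs but are not translated into a known protein. Some act in the nucleus, such as Neat1, on which paraspeckles are built, and some are hosts whose introns release snoRNAs or microRNAs. Host transcripts of the Gas5 and Snhg kind are short-lived once spliced, because translation of their short reading frames exposes them to nonsense-mediated decay. TIA1 and TIAR, the proteins absent in the knockout cells, are related RNA-binding proteins that act on splicing in the nucleus and on mRNA translation and decay in the cytoplasm.

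The samples were total RNA of immortalized murine embryonic fibroblasts (MEF), hybridized with 1 dye to 6 arrays, 2 for each group. The labels give WT MEF the background W4, TIA1 knock out (TIA1 KO) MEF the background BALB/c and TIAR knock out (TIAR KO) MEF the background C57BL/6, with no treatment, time or age. Strain, cell line and genotype therefore cannot be told apart in any comparison. The study's methods call the arrays of a condition independent experiments, and the labels name no separate cultures, so that p-values measure the spread between these arrays. In bulk RNA, fewer cells of a type and less RNA per cell cannot be told apart.

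The results turn on a small set of transcripts, and the 60-base probes that read them are shown here with the mm9 position and strand given in the scanner files, all in lower case because the whole probe pairs with its target. Hoxa11os (Hoxa11as on the array) lies opposite Hoxa11, Snhg18 (0610007N19Rik on the array) hosts a snoRNA, Pvt1 lies in the region of Myc, and Gas5 was read by 3 probes that differed from each other.
Hoxa11os, chr6:52199709-52199768, plus strand: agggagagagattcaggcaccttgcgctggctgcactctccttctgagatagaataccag
Snhg18, chr15:32170363-32170422, minus strand: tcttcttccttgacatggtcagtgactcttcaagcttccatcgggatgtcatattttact
Pvt1 probe 1, chr15:62081020-62081079, plus strand: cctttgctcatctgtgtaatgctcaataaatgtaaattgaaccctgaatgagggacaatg
Pvt1 probe 2, chr15:62082471-62082530, plus strand: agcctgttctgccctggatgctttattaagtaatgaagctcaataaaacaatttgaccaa
Neat1, chr19:5842564-5842623, minus strand: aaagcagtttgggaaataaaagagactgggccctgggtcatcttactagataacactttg
Gas5 probe 1, chr1:162968608-162968667, plus strand: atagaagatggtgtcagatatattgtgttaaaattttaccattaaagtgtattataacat
Gas5 probe 2, chr1:162966369-162966428, plus strand: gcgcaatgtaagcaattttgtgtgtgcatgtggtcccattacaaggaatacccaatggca
Gas5 probe 3, chr1:162967350-162967409, plus strand: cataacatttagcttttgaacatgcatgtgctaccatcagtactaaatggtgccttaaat

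Values are log2 signals from the authors' table, normalized between arrays, and a probe's signal is compared between groups. Where probes are ordered by brightness, the order is one of signal, not of RNA level. A probe was called when its Benjamini-Hochberg adjusted p in limma, computed over all 55681 probes, was under 0.05 and its fold change above 2, the thresholds of the methods. Detection means that the scanner software rated the probe well above background.

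The deleted genes were read first. The brightest probe of Tia1 gave 10.57 and 8.71 for WT, 7.52 and 8.38 for TIA1 KO and 9.75 and 9.77 for TIAR KO, and the difference in TIA1 KO MEF (log2 fold change −1.69 ± 0.75, SE) was not called (limma adjusted p = 0.247). The other Tia1 probes had log2 fold changes of −1.86 and 1.10 there, not called (limma adjusted p = 0.149 and 0.106). Tial1, which encodes TIAR, gave on its brightest probe 13.29 on the single WT array with a usable spot, 14.20 and 13.77 for TIA1 KO and 9.80 and 11.78 for TIAR KO, and the change from WT was −2.50 ± 0.82 on the log2 scale (limma adjusted p = 0.188). The second Tial1 probe was called, with a log2 fold change of −1.47 ± 0.27 in TIAR KO MEF (limma adjusted p = 0.0316). Of these 5 probes, only that Tial1 probe passed the test against WT, and whether the probes lie in the deleted parts of the genes was not tested.

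Of 10 fibroblast markers, both WT arrays rated 7 well above background, both TIA1 KO arrays 8 and both TIAR KO arrays 10. Vim, the intermediate filament of mesenchymal cells, read 17.36 and 17.60 for WT, 17.83 and 17.95 for TIA1 KO and 17.92 and 17.95 for TIAR KO. Pdgfra, the receptor for platelet-derived growth factor on fibroblasts, read 6.62 and 6.77 in WT MEF and was not well above background there, against 10.16 and 10.42 in TIA1 KO and 11.75 and 11.61 in TIAR KO MEF. Thy1 and Dcn were each well above background on 1 of 2 WT arrays. The summed linear signal of the 10 markers was 575797 and 611830 for WT, 1403620 and 1382050 for TIA1 KO and 1472930 and 1499470 for TIAR KO, and calls were higher for 5 markers in TIA1 KO MEF and for 8 in TIAR KO MEF, and lower for none. Among the brightest of these probes were S100a4, at 17.81 and 18.10 for WT, 17.90 and 18.03 for TIA1 KO and 18.28 and 18.45 for TIAR KO, and Col1a2, at 16.43 and 15.64, 18.69 and 18.38, and 18.54 and 18.06. Of 5 epithelial markers, Cdh1, Krt8 and Krt18 were higher in TIAR KO MEF, and Epcam was not well above background on any WT or TIAR KO array. Krt14, the fifth, read 7.87 and 7.86 for WT, 6.84 and 7.33 for TIA1 KO and 7.55 and 7.62 for TIAR KO and was not called. The blood markers Ptprc and Adgre1, the muscle markers Myod1 and Myog, the endothelial marker Cdh5 and the neuron marker Rbfox3 were not well above background on any array. Cd68, a marker of macrophages, read 11.00 and 10.40 for WT, 9.95 and 10.27 for TIA1 KO and 11.77 and 11.75 for TIAR KO, and was called higher in TIAR KO than in TIA1 KO MEF (limma adjusted p = 0.0475). Des, the muscle intermediate filament, was called higher in TIAR KO than in WT MEF (log2 fold change 1.15, limma adjusted p = 0.0126) and than in TIA1 KO MEF (at least 2.28-fold, limma adjusted p = 0.0402). Snap25, of neurons, and Kdr, of endothelium, were detected on all arrays by their brighter probes, at 10.98 to 12.80 and 11.43 to 11.83, and Snap25 was called lower in TIAR KO than in TIA1 KO MEF (limma adjusted p = 0.0439). The neuronal tubulin gene Tubb3 read 8.30 and 8.41, 7.51 and 9.12, and 9.19 and 8.34, and neither it nor the endothelial Pecam1 was called in any comparison. A dimmer probe of Kdr was well above background on the TIAR KO arrays and was called at least 2.68-fold higher there than in WT MEF (limma adjusted p = 0.00608). The part of these marker differences in the results below was not tested.

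Most of the non-coding probes were dim. On the 6 arrays, 357 and 419 of them were well above background for WT, 214 and 283 for TIA1 KO and 397 and 416 for TIAR KO. No array showed 601 of them (52.9%), against 43.1% of all probes, and 167 (14.7%) were well above background on all 6 arrays, against 24.7% of all probes. The TIA1 KO arrays detected fewer probes: 16000 and 19920 of all probes, against 23531 to 26254 on the other arrays. Their unnormalized median signals were 458 and 218, against 119 to 152, and by the file labels they lay in another row of the slide, so that slide row and the loss of TIA1 cannot be told apart. The SD between the arrays of a group over the non-coding probes on the log2 scale was 0.25 for WT, 0.59 for TIA1 KO and 0.27 for TIAR KO. Limited by signal, 81 non-coding probes (7.12%) were detected on all WT and TIAR KO arrays and on neither TIA1 KO array, and the same held for 6.39% of all probes.

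Detection differed by class. All 9 structural small RNA probes, 10 of 11 named lncRNA probes and 20 of 23 small-RNA host probes passed background on both arrays in 1 group or more. For cDNA or predicted-gene names the count was 276 of 866, for pseudogenes 38 of 93 and for antisense transcripts 25 of 78. The brightest probe of each class was that of Gm12070 (17.98 to 18.60 over the 6 arrays), the pseudogene Gm5523 (17.59 to 18.63), Rn4.5s (16.69 to 17.96), the ribosomal Rn18s (13.02 to 17.32), Neat1 (12.88 to 15.64), Snhg3 (13.03 to 14.94) and Sp3os (11.72 to 12.71).

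**Figure D1:**
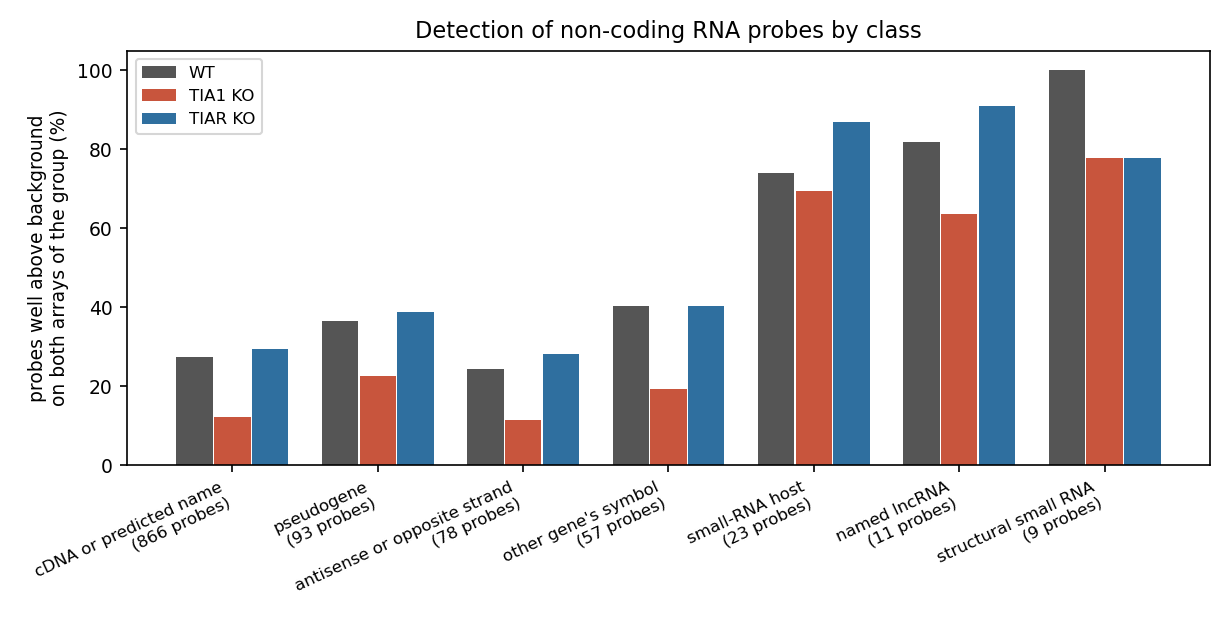
Share of non-coding RNA probes (vertical axis, percent) rated well above background on both arrays of a group, for 7 classes (horizontal axis, with the number of probes) and 3 groups (bars). TIA1 KO MEF has the lowest bar in every class except structural small RNAs, where it equals TIAR KO MEF at 7 of 9.

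In TIA1 KO MEF, 11 non-coding probes (10 transcripts) rose and 9 fell. That is 0.967% and 0.792% of these probes, beside 1.56% and 0.787% of all probes. The median log2 fold change of the non-coding probes was −0.13, and that of all probes −0.12. In TIAR KO MEF, 27 probes (26 transcripts) rose and 20 (19 transcripts) fell, 2.37% and 1.76%, beside 3.33% and 2.36% of all probes, with medians of −0.005 and −0.02. An unadjusted p under 0.05 was reached by 287 non-coding probes (25.2%, against 26.1% of all probes) in TIA1 KO and by 194 (17.1%, against 19.5%) in TIAR KO MEF. In the group where a called probe was higher, both arrays detected 18 of 20 and 47 of 47.

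The counts moved when an array was left out, which leaves 1 group with a single array that is assumed to vary like the other group. Without WT replicate 1, or without WT replicate 2, limma called 0 non-coding probes in TIA1 KO MEF, where 131 and 126 reached an unadjusted p under 0.05. Leaving out TIA1 KO replicate 1 gave 7 calls, beside 0.966% of all probes, and leaving out replicate 2 of that group gave 253, beside 20.2%. In TIAR KO MEF it called 9 and 8 without each WT array (1.57% and 1.66% of all probes), 0 without TIAR KO replicate 1 (169 at an unadjusted p under 0.05) and 3 without TIAR KO replicate 2 (0.613%). With arrays scaled only to a common median, 35 rose and 203 fell in TIA1 KO MEF, with the median of all probes at −0.67, and 21 rose and 37 fell in TIAR KO MEF, beside 28.4% and 7.43% of all probes called. With the scanner software's processed signal scaled to its 75th percentile, 30 rose and 13 fell in TIAR KO MEF, beside 4.54% of all probes called, and none was called in TIA1 KO MEF, where that median was 1.98 and 671 reached an unadjusted p under 0.05. Relative to that median, the processed signal turned the sign of 4 of 20 called and 45 of 115 other named values of TIA1 KO MEF, of 0 of 47 and 20 of 113 in TIAR KO MEF, and of 3 of 23 and 46 of 115 between the knockouts.

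**Figure D2:**
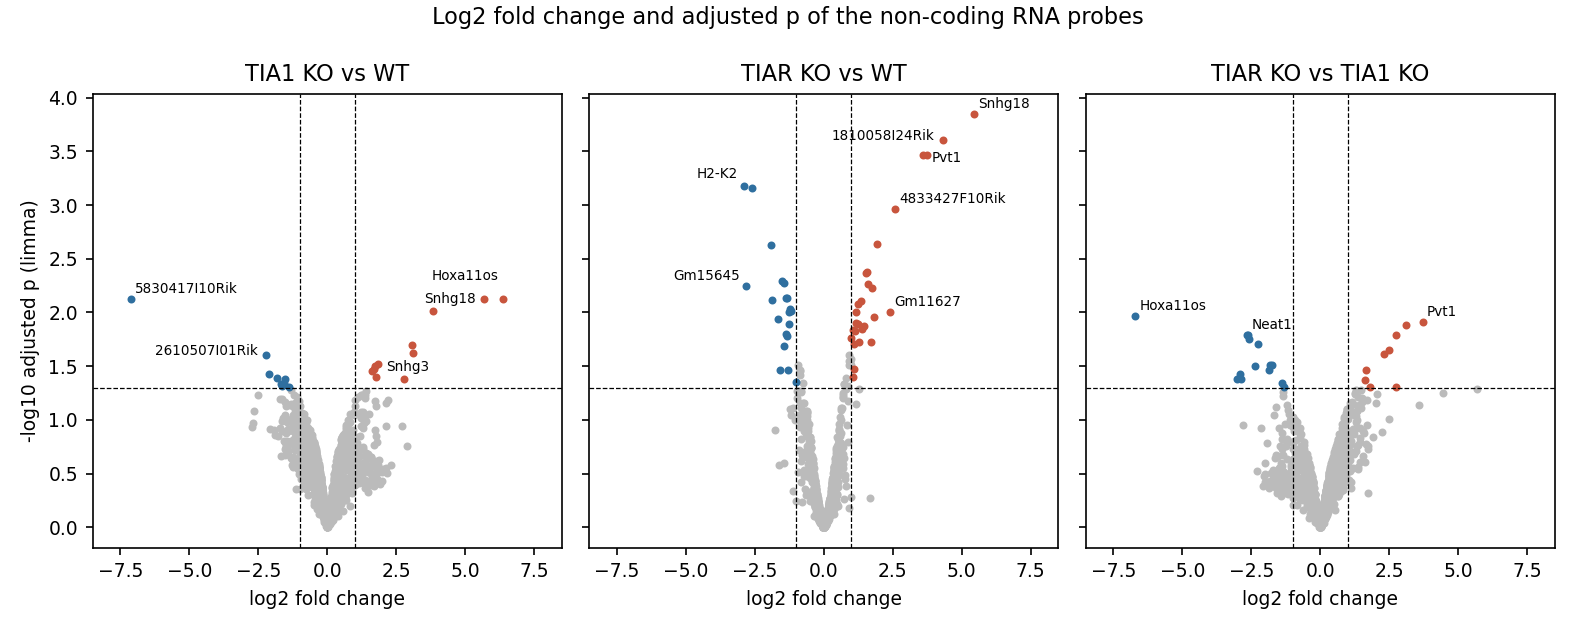
Log2 fold change (horizontal axis) and −log10 of the limma adjusted p (vertical axis) of the 1137 non-coding RNA probes in 3 comparisons. Red points are called higher, blue points called lower, and dashed lines mark an adjusted p of 0.05 and a fold of 2. Against WT, the largest rise and fall in TIA1 KO MEF were Hoxa11os (6.36) and 5830417I10Rik (−7.12). The largest change in TIAR KO MEF was Snhg18 (5.43). Between the knockouts, the largest called difference was Hoxa11os (−6.71).

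Among the hosts of small RNAs, Snhg18 stood out in both knockouts. Snhg18 carries Snord123, a guide for rRNA methylation, in its locus. It read 6.71 and 6.66 for WT, 12.27 and 12.49 for TIA1 KO and 12.19 and 12.04 for TIAR KO. All KO values lay above all WT values, and neither WT array was well above background. TIA1 KO MEF exceeded WT by 5.70 ± 0.16 on the log2 scale (limma adjusted p = 0.00746), at least 46.7-fold, and TIAR KO MEF by 5.43 ± 0.16 (limma adjusted p = 0.000142), at least 38.9-fold. Such limits compare the bright group with the dimmest detected signal of each dim array, unless the dim probe itself read higher.

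Snhg3, the host of Snora73a and Snora73b, read 13.31 and 13.17 for WT, 14.94 and 14.91 for TIA1 KO and 13.03 and 13.18 for TIAR KO. It rose 3.22-fold in TIA1 KO MEF (log2 fold change 1.69 ± 0.15, limma adjusted p = 0.0334), but lay at −0.50 relative to all probes with the processed signal. Its log2 fold change in TIAR KO MEF was −0.14 (limma adjusted p = 0.752). Snhg5 had values of 9.93 and 9.89 for WT, 11.74 and 11.13 for TIA1 KO and 10.49 and 10.62 for TIAR KO, and was not called in either knockout (limma adjusted p = 0.0884 and 0.0771), with the TIA1 KO value at −0.30 relative to all probes with the processed signal. Snhg1, Snhg10 and Snhg12 were well above background on all 6 arrays, with log2 fold changes from 0.12 to 0.28 in TIA1 KO and from 0.09 to 0.62 in TIAR KO MEF, none called. With the processed signal and relative to all probes, their TIA1 KO values were −1.87, −1.96 and −2.14, so that no direction is given for them. Snhg17 (9430008C03Rik on the array) read 11.26 and 11.32 for WT, 8.62 and 9.85 for TIA1 KO and 11.16 and 11.17 for TIAR KO. Its log2 fold change in TIA1 KO MEF, −2.055 ± 0.47, was not called (limma adjusted p = 0.12). In all, 2 of the 23 probes classed as hosts were called higher in each knockout and none was called lower. Of all probes, 1.56% rose and 0.787% fell in TIA1 KO, and 3.33% rose and 2.36% fell in TIAR KO MEF. Other loci with small RNAs, such as 2410006H16Rik, Dancr and Dnm3os (given below), were classed elsewhere and are not in this count.

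Gas5, a growth-arrest transcript whose introns hold several snoRNAs, was read by 3 probes that differed. Probe 1, the furthest downstream by mm9 position, read 11.97 and 11.95 for WT, 8.52 and 10.01 for TIA1 KO and 13.94 and 13.51 for TIAR KO. It rose 3.40-fold in TIAR KO MEF (log2 fold change 1.77 ± 0.20, limma adjusted p = 0.00591), and its log2 fold change in TIA1 KO MEF was −2.69 ± 0.56 (limma adjusted p = 0.108). Probe 2 read 10.98 and 10.28 for WT, 11.69 and 11.69 for TIA1 KO and 11.32 and 11.01 for TIAR KO. Probe 3 read 11.20 and 10.28, 11.12 and 11.04, and 11.03 and 11.11 in the same order. On probe 2 all KO values lay above those of WT, and on probe 3 all lay between the WT arrays. Neither probe was called in either knockout, and with the processed signal their TIA1 KO log2 fold changes relative to all probes turned from 1.06 to −0.98 on probe 2 and from 0.34 to −1.80 on probe 3.

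Other loci with a snoRNA inside them were also read. 2410006H16Rik, with Snord49a, Snord49b and Snord65, read 13.19 and 13.41 for WT, 14.94 and 13.77 for TIA1 KO and 14.55 and 14.96 for TIAR KO. It rose 2.74-fold in TIAR KO MEF (limma adjusted p = 0.0134), and its TIA1 KO arrays differed by more than 1 log2 unit. 1110038B12Rik, with Snord52, read 15.69 to 15.90 on the WT and TIA1 KO arrays, against 16.51 and 16.35 for TIAR KO, and was not called. Dancr, a host known for its part in keeping progenitors undifferentiated, read 11.81 and 11.37, 11.75 and 11.70, and 10.83 and 11.56 in WT, TIA1 KO and TIAR KO MEF.

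No host transcript of microRNAs named here was called against WT. The arrays measured the long host transcripts, not the mature microRNAs, whose RefSeq sequences (GRCm38.p6) are given for 4 of the hosts to show what they encode, with the seed, bases 2 to 8, in capitals. Mir22hg encodes miR-22, Mir17hg encodes miR-92a beside other members of its cluster, Dleu2 encodes miR-16, and D7Ertd143e spans the embryonic miR-290 cluster, where miR-294-3p and miR-295-3p share a seed.
miR-22-3p: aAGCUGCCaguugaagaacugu
miR-92a-3p: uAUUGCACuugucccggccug
miR-16-5p: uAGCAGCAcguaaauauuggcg
miR-294-3p: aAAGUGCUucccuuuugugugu
miR-295-3p: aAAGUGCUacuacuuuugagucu

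Mir22hg read 9.96 and 9.71 for WT, 10.88 and 10.42 for TIA1 KO and 10.14 and 10.13 for TIAR KO. Mir17hg read 11.04 and 10.18, 10.96 and 10.47, and 10.06 and 9.89. Dleu2 read 8.28 on both WT arrays, 8.19 and 8.80 for TIA1 KO and 8.08 and 8.33 for TIAR KO. The brighter probe of D7Ertd143e read 8.07 and 8.02, 7.21 and 8.90, and 8.07 and 8.27, with the second probe dim on 5 of 6 arrays. None of these was called in either knockout. Mir99ahg, a host of let-7 and miR-99 family members, was well above background on both TIAR KO arrays (7.93 and 7.88) and on no other array. It read 7.16 on both WT arrays and 6.73 and 6.92 for TIA1 KO. Mir100hg (2610203C20Rik on the array), a host of miR-100, read 8.78 and 8.48 for WT, 7.38 and 8.38 for TIA1 KO and 7.97 and 7.62 for TIAR KO, with both TIAR KO values below both WT values, and was not called (log2 fold changes −0.75 and −0.83, limma adjusted p = 0.301 and 0.0773). Dnm3os, the host of miR-199a and miR-214 opposite Dnm3, had 3 probes. Of these, 1 was well above background on both TIAR KO arrays (7.47 and 7.60) and on no other array. It read 6.67 and 6.60 for WT and 7.17 and 7.35 for TIA1 KO. On TIA1 KO replicate 1 the lowest signal rated well above background was 7.93, above all these readings. Detection on both TIAR KO arrays alone held for 1.76% of the non-coding probes and 1.37% of all probes.

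Among named lncRNAs, Pvt1 was high on the TIAR KO arrays. Pvt1, a transcript next to the Myc gene that is often amplified with it in tumours, read on probe 1 11.67 and 11.47 for WT, 11.55 and 11.38 for TIA1 KO and 15.26 and 15.09 for TIAR KO. Probe 2 read 10.07 and 10.34, 10.82 and 10.84, and 14.00 and 13.87. Both probes were higher on both TIAR KO arrays than on the other 4. In TIAR KO MEF it rose 12.2-fold (log2 fold change 3.60 ± 0.17, limma adjusted p = 0.000344) and 13.3-fold (3.73 ± 0.18, limma adjusted p = 0.00034). The log2 fold changes of TIA1 KO MEF were −0.11 (limma adjusted p = 0.691) and 0.62 (limma adjusted p = 0.145), the latter −1.75 relative to all probes with the processed signal, and TIAR KO exceeded TIA1 KO MEF by 3.71 ± 0.18 and 3.11 ± 0.16 on the log2 scale (limma adjusted p = 0.0123 and 0.0131). Myc itself read 12.64 and 12.68 for WT, 12.44 and 12.49 for TIA1 KO and 13.34 and 13.44 for TIAR KO, a log2 fold change of 0.73 ± 0.16 in TIAR KO MEF (limma adjusted p = 0.052).

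Neat1, the scaffold of paraspeckles, fell in TIAR KO MEF. It read 14.66 and 14.07 for WT, 15.64 and 15.51 for TIA1 KO and 12.96 and 12.88 for TIAR KO, with no overlap between groups. Its fall in TIAR KO MEF was 2.72-fold (log2 fold change −1.45 ± 0.23, limma adjusted p = 0.0207). The log2 fold change in TIA1 KO MEF, 1.21 ± 0.26, did not pass the test (limma adjusted p = 0.114), and was −0.95 relative to all probes with the processed signal. TIAR KO and TIA1 KO MEF differed by −2.65 ± 0.16 on the log2 scale (limma adjusted p = 0.0164). Over the 11 settings run for it, this difference ranged from −2.72 to −0.91. Malat1, a neighbouring nuclear transcript, read 11.50 and 10.26, 11.36 and 12.77, and 11.56 and 11.14 in the 3 groups, and its replicates overlapped.

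Among the other named lncRNAs, Peg13, an imprinted transcript inside Trappc9, read 10.99 and 11.03 for WT, 12.62 and 12.92 for TIA1 KO and 12.68 and 11.91 for TIAR KO. It rose 3.39-fold in TIA1 KO MEF (log2 fold change 1.76 ± 0.18, limma adjusted p = 0.0396, and −0.25 relative to all probes with the processed signal), and its log2 fold change of 1.28 ± 0.27 in TIAR KO MEF did not pass the test (limma adjusted p = 0.0515). Fendrr, a lncRNA of lateral mesoderm next to Foxf1, was well above background on the TIAR KO arrays alone, at 8.00 and 8.02, with 6.92 to 7.05 on the other 4 arrays, at least 2.06-fold higher than WT (limma adjusted p = 0.0144). Tug1 was read by 3 probes, of which 2 had log2 fold changes of 0.98 and 0.90 in TIAR KO MEF, under the fold threshold, and the third 0.06. In all, 1 of the 11 probes classed as named lncRNAs rose in TIA1 KO MEF, beside 1.56% of all probes. In TIAR KO MEF, 3 rose, of which 2 were probes of Pvt1, and 1 fell, beside 3.33% and 2.36% of all probes. This class leaves out Lockd, which fell in TIA1 KO, and Crnde and Dubr, which fell in TIAR KO MEF (given below). The imprinted transcripts Airn and Kcnq1ot1, which lie opposite Igf2r and Kcnq1, were not called on any of their probes.

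**Figure D3:**
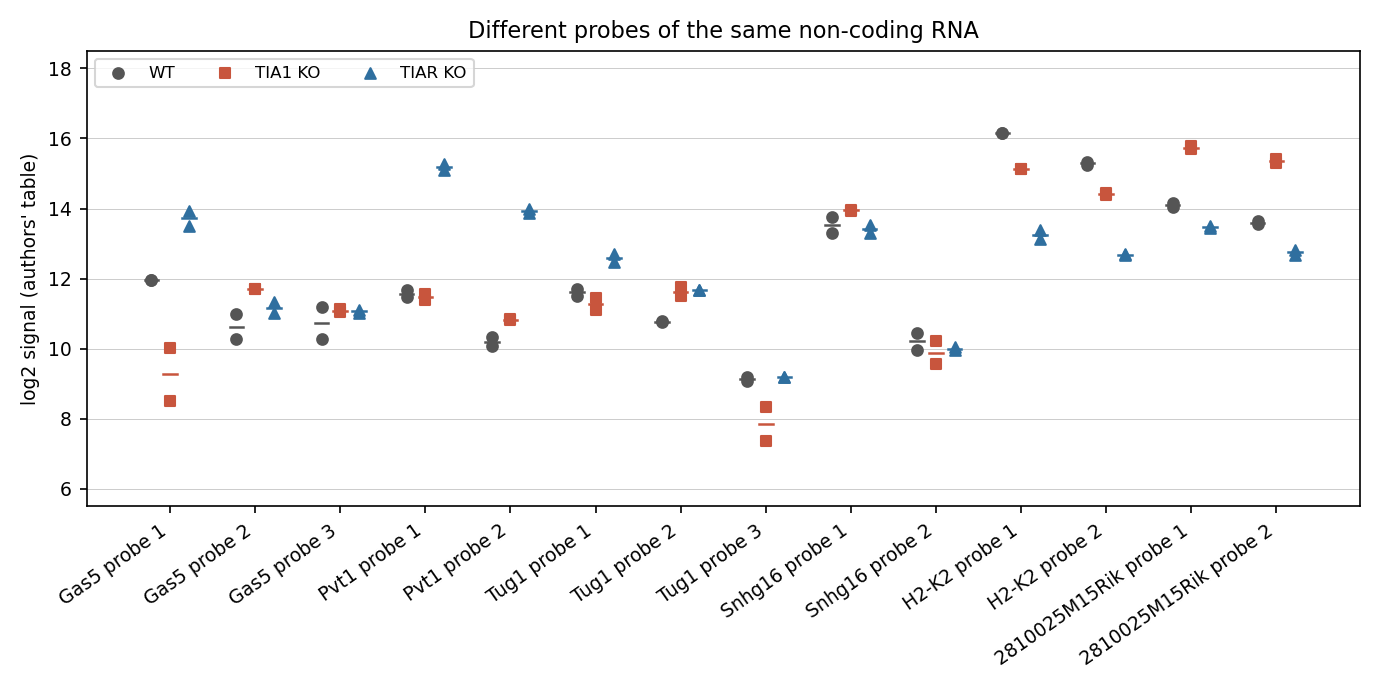
Log2 signal (vertical axis) of each array for 6 non-coding RNAs with more than 1 probe (horizontal axis, probes in order of brightness). Points are arrays, short lines group means. H2-K2 and 2810025M15Rik keep the order of the groups on both probes and Pvt1 is highest in TIAR KO MEF on both, while Gas5 is highest in TIAR KO MEF on probe 1 only.

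Antisense transcripts gave the largest rise. Hoxa11os runs opposite Hoxa11, a homeobox gene of limb and urogenital development. It read 7.64 and 7.75 for WT, 14.06 and 14.05 for TIA1 KO and 7.54 and 7.16 for TIAR KO. Only the TIA1 KO arrays were high, and the 82.1-fold rise over WT (log2 fold change 6.36 ± 0.15, limma adjusted p = 0.00746) was measured with 1 of 2 WT arrays well above background. TIAR KO MEF lay −6.71 ± 0.21 from TIA1 KO MEF (limma adjusted p = 0.0108). Hoxa11 read 7.01 and 7.13 for WT, 11.84 and 11.78 for TIA1 KO and 6.86 and 6.67 for TIAR KO, at least 26.8-fold higher in TIA1 KO than in WT MEF (limma adjusted p = 0.00753). The neighbouring Hoxa10 read 10.61 and 10.54, 9.85 and 10.42, and 6.61 and 6.33, and TIAR KO MEF, where it was not well above background, lay at least 16.97-fold below WT (limma adjusted p = 0.000263).

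Other pairs of antisense and coding transcripts differed from case to case. The transcript opposite Hoxd3, Hoxd3os1 (1700109F18Rik on the array), read 8.66 and 8.82 for WT, 6.44 and 6.82 for TIA1 KO and 8.44 and 8.93 for TIAR KO, and TIA1 KO MEF lay at least 2.58-fold below WT (limma adjusted p = 0.0372). Hoxd3 was not well above background in WT or TIA1 KO MEF, and read 8.25 and 8.57 in TIAR KO MEF. Has2os, opposite the hyaluronan synthase gene Has2, read 8.02 and 7.07, 7.07 and 8.06, and 7.96 and 7.94, with overlapping groups. Its probe was well above background on 1 WT array, neither TIA1 KO array and both TIAR KO arrays. Has2 read 8.15 and 8.05 for WT, 13.42 and 13.51 for TIA1 KO and 8.39 and 8.74 for TIAR KO (log2 fold change 5.37 in TIA1 KO MEF, limma adjusted p = 0.00746). 2810025M15Rik, opposite Rasal2, rose in TIA1 KO MEF on both its probes (log2 fold changes 1.63 and 1.75, but −0.39 to −0.51 relative to all probes with the processed signal), and Rasal2 read 9.43 and 9.32, 10.26 and 10.34, and 8.32 and 8.62. Both transcripts were lower in TIAR KO than in TIA1 KO MEF (log2 fold changes −2.25 and −2.59 for the probes of 2810025M15Rik and −1.83 for Rasal2, limma adjusted p = 0.0396 for Rasal2). Over 11 settings, the differences of the 2810025M15Rik probes ranged from −2.30 to −0.457 and from −2.68 to −0.75.

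Wt1os (AI314831 on the array), named for its place beside the Wilms tumour gene Wt1, read on 1 of its 2 probes 6.38 and 6.51 for WT, 8.35 and 8.24 for TIA1 KO and 7.98 and 7.96 for TIAR KO. It was at least 3.08-fold higher in TIA1 KO MEF, where 1 of 2 arrays was well above background (limma adjusted p = 0.0304), and at least 2.46-fold higher in TIAR KO MEF (limma adjusted p = 0.00431). Its second probe read 6.45 to 7.03 over the 6 arrays and was well above background on none. Wt1 read 6.63 and 6.74 for WT, 6.80 and 7.08 for TIA1 KO and 11.13 and 10.74 for TIAR KO, at least 17.6-fold higher in TIAR KO MEF (limma adjusted p = 0.000318). Over the 78 probes classed as antisense, 2 rose and 1 fell in TIA1 KO, and 1 rose and none fell in TIAR KO MEF. That class leaves out 2810025M15Rik. By position, 193 probes overlapped a coding gene on the opposite strand. Of these, 3 rose and 2 fell in TIA1 KO, and 2 rose and 1 fell in TIAR KO MEF. Among the 3 that rose in TIA1 KO MEF were the 2 probes of 2810025M15Rik. Of all probes, 1.56% rose and 0.787% fell in TIA1 KO, and 3.33% rose and 2.36% fell in TIAR KO MEF.

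**Figure D4:**
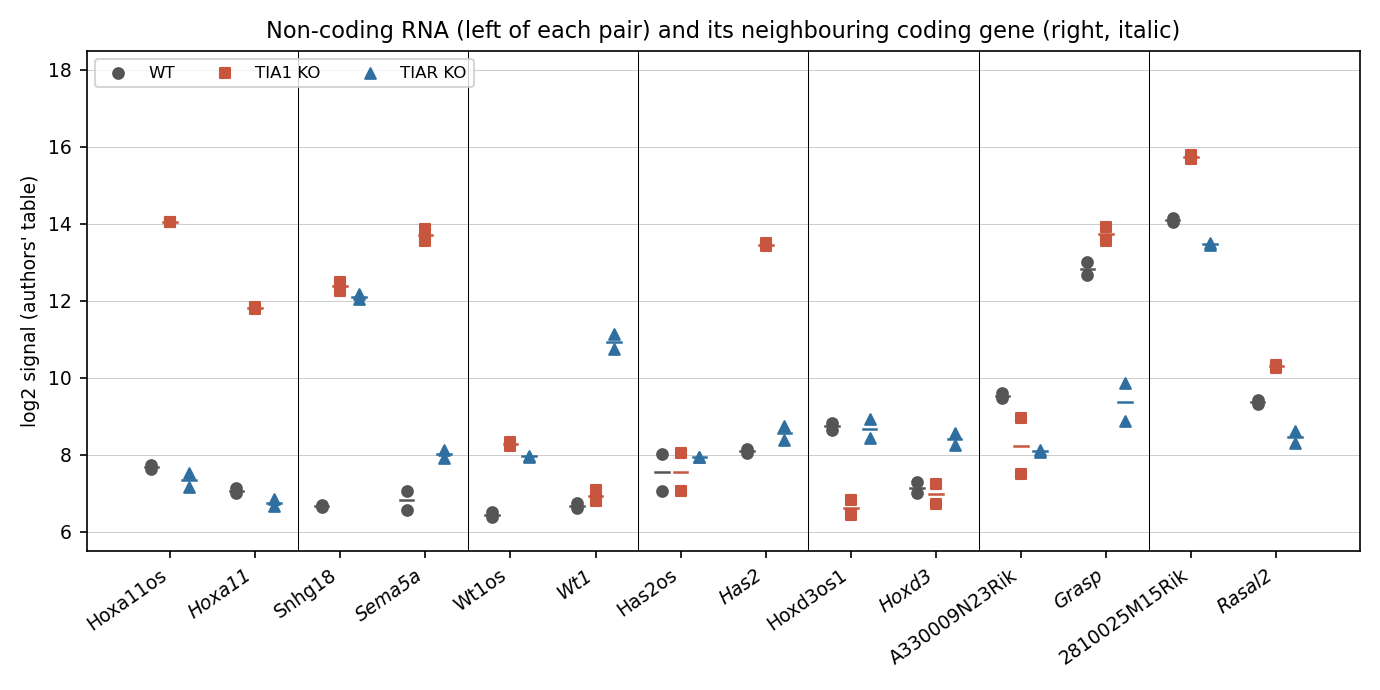
Log2 signal (vertical axis) of each array for 7 pairs of a non-coding RNA (left) and the coding gene beside or opposite it (right, italic). Points are arrays, short lines group means. Hoxa11os and Hoxa11 are both high on the TIA1 KO arrays. Snhg18 is high in both knockouts while Sema5a is highest in TIA1 KO MEF (13.88 and 13.57). Has2 is high in TIA1 KO MEF, where the Has2os probe was not well above background.

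Snhg18 starts head to head with Sema5a, a semaphorin gene, so that the 300-base windows around their starts share 250 bases. The Snhg18 window (RefSeq, GRCm38.p6, chr15:32244613-32244912, minus strand, 250 bases before to 50 after the start) is printed because both genes were higher in the knockouts, with the GC box GGGCGG or its reverse complement CCGCCC in capitals, 5 matches in all, overlapping ones counted.
Snhg18 promoter: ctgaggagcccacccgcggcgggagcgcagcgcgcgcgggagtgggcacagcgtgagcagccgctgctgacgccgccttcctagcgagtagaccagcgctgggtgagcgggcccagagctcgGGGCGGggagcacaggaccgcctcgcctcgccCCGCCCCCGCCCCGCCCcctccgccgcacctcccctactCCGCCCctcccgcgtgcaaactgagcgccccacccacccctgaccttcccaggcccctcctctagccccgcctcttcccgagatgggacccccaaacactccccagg

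At least 1 such match was held by 35.7% of all 32851 promoter windows in the table and by 34.3% of the 662 windows of non-coding RNAs on the array. Sema5a read 6.58 and 7.06 for WT, 13.88 and 13.57 for TIA1 KO and 8.14 and 7.93 for TIAR KO. It was at least 120-fold higher in TIA1 KO (limma adjusted p = 0.00893) and at least 2.32-fold higher in TIAR KO MEF (limma adjusted p = 0.0295). Between the knockouts, Sema5a was lower in TIAR KO MEF (difference −5.69, limma adjusted p = 0.0109), and the difference of Snhg18 (0610007N19Rik), −0.27 ± 0.18, did not pass the test (limma adjusted p = 0.421) and was 1.60 relative to all probes with the processed signal.

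Each coding gene of such a pair was read from its brightest probe. Where the non-coding transcript was called, the head-to-head coding gene was called with it in 1 of 4 pairs in TIA1 KO and 1 of 7 in TIAR KO MEF, in each case Sema5a with Snhg18, beside 2.35% and 5.69% of all probes called. For overlapping opposite-strand pairs the counts were 1 of 5, Hoxa11, and 1 of 3, Grasp with A330009N23Rik. Of the 5 pairs in TIA1 KO MEF, 2 were the probes of 1 transcript, 2810025M15Rik, with Rasal2. Between the knockouts the coding gene was called in 0 of 4 head-to-head and 3 of 4 opposite-strand pairs, the latter being Hoxa11 and, for 2 probes of 1 transcript, Rasal2, beside 2.30% of all probes. Called or not, the coding gene had the sign of its non-coding transcript in 3 of 4 head-to-head and 5 of 5 opposite-strand pairs in TIA1 KO MEF. In TIAR KO MEF this held for 3 of 7 and 2 of 3, and between the knockouts for 3 of 4 and 4 of 4. These pairs are few, and whether the share of coding genes called differs from that of all probes was not tested. A330009N23Rik read 9.48 and 9.60 for WT, 7.51 and 8.95 for TIA1 KO and 8.09 and 8.12 for TIAR KO, and Grasp fell with it in TIAR KO MEF (log2 fold changes −1.44 and −3.46).

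Of the 93 probes with a pseudogene name, none was called in TIA1 KO, and 2 rose and 1 fell in TIAR KO MEF. By RefSeq biotype, 218 probes stood for transcribed pseudogenes, and 3 of them fell and none rose in TIA1 KO, while 5 fell and 3 rose in TIAR KO MEF. Of all probes, 0.787% fell and 1.56% rose in TIA1 KO, and 2.36% fell and 3.33% rose in TIAR KO MEF. The largest called fall among the transcribed pseudogenes in TIA1 KO MEF was that of 5830417I10Rik, which read 13.59 and 13.53 for WT, 6.32 and 6.56 for TIA1 KO and 13.06 and 11.17 for TIAR KO. In TIA1 KO MEF it lay at least 79.6-fold below WT (log2 fold change −7.12 ± 0.17, limma adjusted p = 0.00746), and it was dim on both TIA1 KO arrays only. Gm6524 read 12.62 on both WT arrays, 11.12 and 11.33 for TIA1 KO and 11.45 and 11.34 for TIAR KO, and fell in both (log2 fold changes −1.40 and −1.23, limma adjusted p = 0.0495 and 0.00927). BC021767 read 12.84 and 12.32, 9.44 and 10.43, and 10.61 and 10.82, and its fall was called in TIAR KO (limma adjusted p = 0.00763) but not in TIA1 KO MEF (limma adjusted p = 0.0819).

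H2-K2, a class I histocompatibility locus without a coding product, fell in TIAR KO MEF on both of its probes. The mm9 positions of the probes (chr17:34111920-34111979 and chr17:34111941-34112000, minus strand) overlap by 39 bases, and their sequences differ at 2 of these, shown in capitals.
H2-K2 probe 1: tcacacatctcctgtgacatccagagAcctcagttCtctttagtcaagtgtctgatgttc
H2-K2 probe 2: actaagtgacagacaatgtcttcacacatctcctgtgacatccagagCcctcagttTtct

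Probe 1 read 16.14 and 16.15 for WT, 15.12 and 15.14 for TIA1 KO and 13.38 and 13.13 for TIAR KO, and probe 2 read 15.24 and 15.33, 14.38 and 14.45, and 12.69 and 12.67. The falls in TIAR KO MEF were 7.41-fold and 6.08-fold (limma adjusted p = 0.000663 and 0.000686). The brightest probe of the related coding gene H2-K1 had a log2 fold change of −2.64 and that of H2-D1 one of −2.60 in TIAR KO MEF. Class I genes are near-identical copies that differ between strains, and cross-hybridization between them and strain differences under the probes cannot be told apart from a change in level.

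Hmga2-ps1, a processed copy of the chromatin protein gene Hmga2, read 11.54 and 11.76 for WT, 11.77 and 11.74 for TIA1 KO and 10.38 and 10.37 for TIAR KO, a log2 fold change of −1.27 ± 0.17 in TIAR KO MEF (limma adjusted p = 0.01). Hmga2 itself read 14.56 and 14.43, 15.31 and 15.06, and 12.48 and 12.52 on its brightest probe, with a log2 fold change of −1.995 in TIAR KO MEF (limma adjusted p = 0.00169). Whether these probes separate the copy from its parent was not tested. The pseudogenes Sprr2j-ps and Znf41-ps rose in TIAR KO MEF, to 7.78 and 7.96 and to 8.59 and 8.60, and their TIA1 KO arrays differed by more than 1 log2 unit.

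Non-coding variants of coding genes were read beside the coding probes, and the difference between such probes was not tested. The NR variant of Ccl25, a chemokine of gut and thymus, read 7.92 and 8.18 for WT, 6.81 and 7.10 for TIA1 KO and 9.31 and 9.25 for TIAR KO. It rose in TIAR KO MEF (log2 fold change 1.23 ± 0.17, limma adjusted p = 0.0129). The coding probes of Ccl25 had log2 fold changes of −1.18, −1.52 and −0.15 in TIAR KO MEF, and the first 2 were called lower (limma adjusted p = 0.033 and 0.00403). The NR variant of Bmp1, a procollagen protease, read 12.56 and 12.61 for WT, 13.47 and 13.39 for TIA1 KO and 14.71 and 14.08 for TIAR KO. It rose 3.51-fold in TIAR KO MEF (limma adjusted p = 0.0109), and the coding probes of Bmp1 had log2 fold changes of 0.83 and 1.06 there, of which the second was called. The NR variant of Zfp672 read 12.47 and 12.71, 10.81 and 11.04, and 11.44 and 11.07, and fell in both knockouts (log2 fold changes −1.67 and −1.33), with values of −0.31 and −0.67 on its coding probe, neither called.

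The 9 structural RNA probes target transcripts such as spliceosomal, nucleolar and ribosomal RNAs. Snora74a, which guides rRNA pseudouridylation, read 9.80 and 9.77 for WT, 9.42 and 10.28 for TIA1 KO and 8.53 and 8.39 for TIAR KO, and was the only one called against WT (log2 fold change −1.32 ± 0.16 in TIAR KO MEF, limma adjusted p = 0.00738), 1 of 9, where 5.69% of all probes were called. Rnu3b1, a U3 RNA used in rRNA processing, read 11.08 and 10.71, 13.41 and 12.76, and 10.30 and 9.84, and was called between the knockouts (log2 fold change −3.02 ± 0.32 for TIAR KO against TIA1 KO MEF, limma adjusted p = 0.042). The telomerase RNA Terc read 7.84 and 7.72, 10.16 and 8.91, and 7.31 and 7.90, and Rn18s read 13.02 and 13.28, 17.32 and 14.75, and 14.70 and 13.95, neither called. Rmrp, the RNA of the mitochondrial RNA processing ribonuclease, read 9.56 to 10.27 over the 6 arrays.

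The class of cDNA or predicted-gene names on the array, 866 probes including Lockd and Dubr, held 6 rises and 7 falls in TIA1 KO MEF. In TIAR KO MEF it held 17 and 13. Of all probes, 1.56% rose and 0.787% fell in the former and 3.33% and 2.36% in the latter. 1810058I24Rik read 6.84 and 7.04 for WT, 10.77 and 10.76 for TIA1 KO and 11.39 and 11.14 for TIAR KO on 1 probe, at least 14.2-fold and 20.04-fold higher (limma adjusted p = 0.00969 and 0.000249). Its second probe read 7.01 to 7.62 over the 6 arrays. In TIA1 KO MEF, A630077J23Rik (9.96 and 9.63, at least 8.37-fold higher) and 5730420D15Rik (9.84 and 9.16, at least 6.13-fold higher) were detected on the TIA1 KO arrays and on no other array. 1700030C10Rik read 9.71 and 9.30 in TIA1 KO MEF, where 1 of 2 arrays was well above background, at least 7.01-fold higher than WT.

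Falls in TIA1 KO MEF among these transcripts were often to below background. 2610507I01Rik, head to head with the mitochondrial ribosomal protein gene Mrpl55, read 9.21 and 9.36 for WT, 7.18 and 6.98 for TIA1 KO and 9.46 and 9.72 for TIAR KO, with TIA1 KO MEF at least 3.56-fold below WT (limma adjusted p = 0.025). BB557941, 6330549D23Rik and 4930581F22Rik were at least 2.28-fold, 2.01-fold and 1.86-fold lower. Lockd (1190002F15Rik on the array), a transcript downstream of the cell cycle inhibitor gene Cdkn1b, stayed well above background and read 13.92 and 13.65 for WT, 12.23 and 12.19 for TIA1 KO and 13.15 and 12.60 for TIAR KO (log2 fold change −1.57 ± 0.17 in TIA1 KO MEF, limma adjusted p = 0.0457).

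In TIAR KO MEF, 4833427F10Rik (9.62 and 9.78), Gm11627 (9.34 and 10.19) and 8430436N08Rik (8.19 and 8.18) were well above background on both TIAR KO arrays and on no other array, at least 6.02-fold, 5.30-fold and 2.72-fold higher than WT. 1700048O20Rik was at least 3.36-fold higher, and 3300005D01Rik rose to 13.43 and 12.72 from 11.27 and 11.47 in WT MEF. Gm15645 fell from 12.76 and 13.57 to 10.11 and 10.57 (log2 fold change −2.83 ± 0.31, limma adjusted p = 0.00567), and A130040M12Rik fell from 13.27 and 13.31 to 11.48 and 11.25 on 1 of its 3 probes (limma adjusted p = 0.00235), with log2 fold changes of −1.05 and −0.62 on the others, not called. Crnde (4933436C20Rik on the array), a lncRNA raised in colorectal tumours, fell from 10.15 and 10.66 to 8.86 and 8.63 (log2 fold change −1.66, limma adjusted p = 0.0116). Dubr (5330426P16Rik on the array), a lncRNA of myogenic differentiation, fell from 11.23 and 11.38 to 10.16 and 9.75 (log2 fold change −1.35, limma adjusted p = 0.0158), and was at 7.77 and 9.38 in TIA1 KO MEF.

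**Figure D5:**
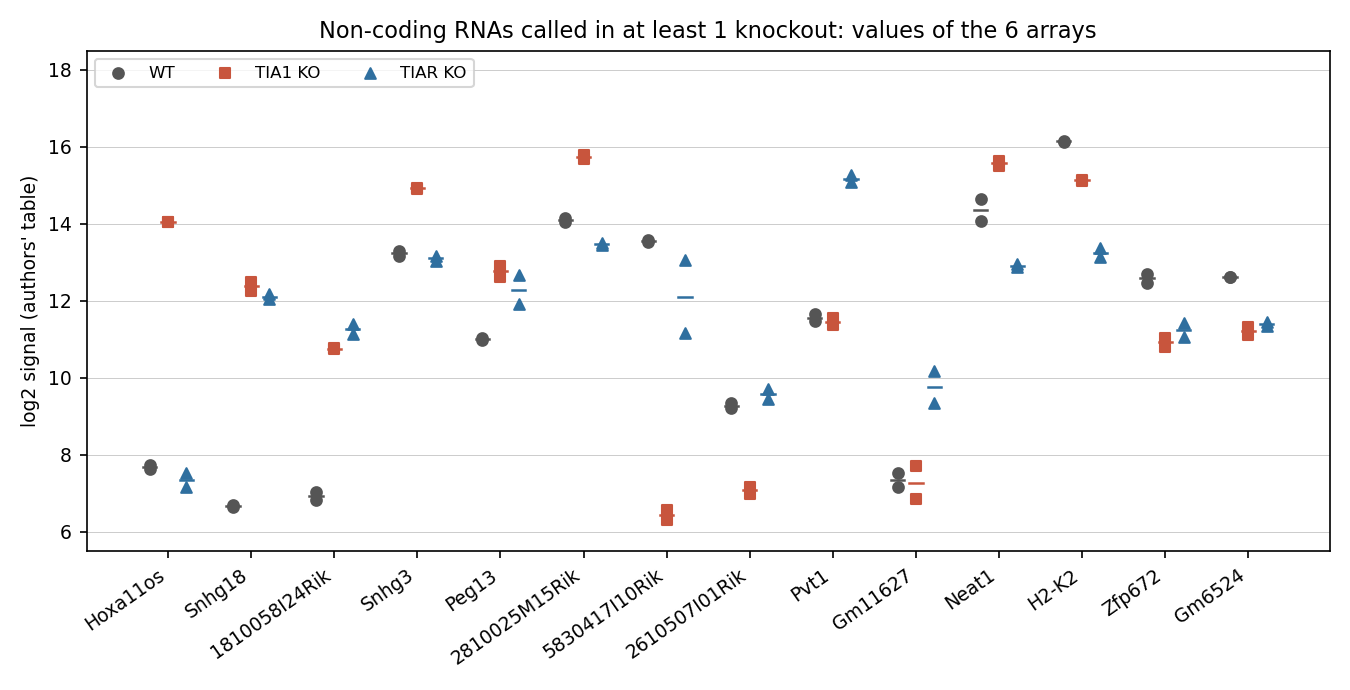
Log2 signal (vertical axis) of each array for 14 non-coding RNAs called in at least 1 knockout (horizontal axis). Points are arrays, short lines group means. Hoxa11os, Snhg3 and 2810025M15Rik are high in TIA1 KO MEF, Snhg18 and 1810058I24Rik (1 of its 2 probes) in both knockouts and Pvt1 in TIAR KO MEF. The signal of 5830417I10Rik is lost from the TIA1 KO arrays (6.32 and 6.56).

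The comparisons with WT share the WT arrays. Probes called in each of them were those of Snhg18 (log2 fold changes 5.70 for TIA1 KO and 5.43 for TIAR KO), 1810058I24Rik (1 of its probes, 3.83 and 4.33), Wt1os (1 of its probes, 1.85 and 1.53), Zfp672 (−1.67 and −1.33) and Gm6524 (−1.40 and −1.23). These 5 probes were 25% of the non-coding calls in TIA1 KO and 10.6% of those in TIAR KO MEF. The same shares were not computed over all probes, so whether they differ from those was not tested. Snhg18, 1810058I24Rik and Wt1os were not well above background in WT MEF, so that their values are differences of measured signals.

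The knockouts were also compared directly. In TIAR KO against TIA1 KO MEF, 9 non-coding probes were higher and 14 lower, 0.792% and 1.23% of these probes, beside 1.1% and 1.2% of all probes. Without either TIAR KO array limma called 0 of them, where 120 and 130 reached an unadjusted p under 0.05. Leaving out TIA1 KO replicate 1 gave 38 calls, and leaving out replicate 2 of that group gave 249, beside 3.2% and 20.5% of all probes. With arrays scaled to a common median, 104 were higher and 16 lower, with the median of all probes at 0.63, and with the processed signal 4 were higher and 30 lower, with that median at −1.85. Of all probes, 14.9% were called in the former and 2.71% in the latter. Of the 23 main calls, 17 were still called with the common median and 8 with the processed signal. Pvt1 (both probes), 2810001G20Rik and 4833427F10Rik gave the largest called differences towards TIAR KO, and Hoxa11os, Rnu3b1 and 5730420D15Rik the largest called ones towards TIA1 KO MEF.

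Genes of proteins that work with these RNAs were also read. Of 8 core snoRNP genes, such as Fbl, the methyltransferase of box C/D snoRNAs, none was called in either knockout, with median log2 fold changes of −0.36 for TIA1 KO and 0.02 for TIAR KO. Of 9 genes of nonsense-mediated decay, none was called, with medians of −0.48 and −0.03, and in TIA1 KO MEF the helicase gene Upf1 differed from WT by −0.61 on the log2 scale and did not pass the test (limma adjusted p = 0.124). Of 9 speckle and paraspeckle proteins, such as Sfpq, which binds Neat1, none was called, with medians of −0.07 and 0.00. Of 13 genes of microRNA processing, 1 rose, Prkra, a partner of Dicer, at 12.07 and 12.22 in TIAR KO against 10.91 and 11.03 in WT MEF (limma adjusted p = 0.0126). The median log2 fold changes of all probes were −0.12 and −0.02, and 2.35% and 5.69% of all probes were called.

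Some of the 1011 transcripts had more than 1 probe. The range between probes of such a transcript had a median of 0.59 for TIA1 KO and 0.28 for TIAR KO on the log2 fold change scale. Where any probe of such a transcript was called, every probe was called in 1 of 3 transcripts in TIA1 KO (2810025M15Rik) and 2 of 8 in TIAR KO MEF (Pvt1 and H2-K2). Both probes of 2810025M15Rik turned sign in TIA1 KO MEF with the processed signal, relative to all probes (−0.51 and −0.39). Such counts were not made for the other transcripts on the array, so whether non-coding RNAs differ from them here was not tested.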

How the data were processed

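The authors deposited the scanner software's output for each array, with the intensity of every spot (mean signal, median local background and processed signal) and quality flags, and a table of log2 values that they state to be normalized. Per the labels, total RNA was labelled with Cy3. The study's methods name normexp with an offset of 50, loess, quantile normalization and limma. The log2 table supplied the main values, rows matched to spots by feature number, since members were defined on it. Its columns correlated with the log2 mean signal of the same array at 0.974 to 0.999, and its medians were 7.22 to 7.23. Control and outlier spots were left out, spots of a probe were averaged, and a probe was detected where at least 50% of its spots were well above background. limma's lmFit and eBayes were run per comparison on the 4 arrays concerned, n = 2 a group, with no covariate. The number of arrays limits precision.

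Names came from the files and from RefSeq GRCm38.p6, which matched 1073 of 1137 probes (94.4%). That build also gave neighbours, biotypes, small RNAs within loci, and the microRNA and promoter sequences. Head to head meant starts within 1000 bases on opposite strands. Where the table gave no strand, the probe's strand was used (662 of 665 alike where both were known). An mm9 annotation was not used here, so exon positions are not given. The sequence of 1 probe is not reported here. Named genes were all targeted-gene probes, fixed groups of hosts, lncRNAs, imprinted, antisense and structural RNAs, the 10 largest called rises and falls per knockout, calls shared by both, the 3 largest per direction between knockouts and the brightest of each class. Sema5a, Hoxa10, Myc, Hmga2, H2-K1, H2-D1 and the coding probes of Ccl25, Bmp1 and Zfp672 were chosen after values were seen, as were the Snhg18 promoter and its motif. Members and lists were chosen with earlier results of these data known.

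Alternatives were scanner values with the methods' steps, processed signal at its 75th percentile, a common median, detected probes only, outlier spots kept, all groups in 1 fit, an intensity trend, treat, a replicate block, the brightest probe and leaving out each array. The limma step was tested on simulated data. Software was R 4.3.3, limma 3.58.1, the data.table package (1.17.8), Python 3.11.15, pandas 2.3.3, numpy 2.4.6 and matplotlib 3.10.9.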

Additional observations from a re-analysis of the deposited data

Results flagged for a closer look

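The direct test between the knockouts separated 23 non-coding probes (2.02%, beside 2.30% of all probes). They are given as log2 fold changes of TIAR KO against TIA1 KO MEF (limma adjusted p under the 0.05 threshold). Lower in TIAR KO were Hoxa11os (−6.71), Rnu3b1 (−3.02), 5730420D15Rik (−2.90, at least 7.44-fold), A630077J23Rik (−2.85, at least 7.24-fold), Neat1 (−2.65), D5Ertd605e (−2.62), 2810025M15Rik (−2.59 and −2.25 on its probes), 1700030C10Rik (−2.36, at least 5.13-fold), H2-K2 (−1.88 and −1.74), Snhg3 (−1.82), Hmga2-ps1 (−1.38) and Sprr2g (−1.31). Sprr2g was not well above background on any array. With the processed signal and relative to all probes, the signs of H2-K2 probe 1 (0.12), Snhg3 (0.0199) and Hmga2-ps1 (0.38) turned. Higher in TIAR KO were Pvt1 (3.71 and 3.11), 2810001G20Rik (2.75, at least 5.60-fold), 4833427F10Rik (2.73, at least 4.77-fold), 2610507I01Rik (2.51, at least 4.39-fold), Ccl25 (2.33, at least 3.40-fold), Gm4285 (1.80, at least 2.99-fold), 8430436N08Rik (1.67, at least 1.91-fold) and R74862 (1.61, at least 2.03-fold). Where a fold limit is given, the lower group was not well above background and the log2 value is the difference of the measured signals.

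Genotype, strain, cell line and, for TIA1 KO MEF, slide row cannot be told apart in these differences.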

How the results depend on the processing

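With 2 arrays a group, the counts moved with the settings. Against 20 main calls in TIA1 KO, limma called 34 with scanner values, 0 with the processed signal, 238 with a common median, 45 over detected probes only, 80 with all groups fitted together, 4 with treat and 0 with the replicate block, where 226 had an unadjusted p under 0.05. Of all probes tested, 2.35% were called at first and 3.54%, 0%, 28.4%, 9.6%, 6.46%, 0.661% and 0% in that order. Leaving out an array gave 0 to 253 (0% to 20.2% of all probes). Against 47 in TIAR KO (5.69% of all probes) it called 23 with all groups together (3.65%), 9 with treat (1.7%), 0 to 9 without an array (0% to 1.66%) and 34 with the replicate block (4.22%). Against 23 between the knockouts (2.3%) it called 120 with a common median (14.9%), 47 over detected probes (9.66%), 68 with all groups together (5.93%), 6 with treat (0.733%), 0 with the block (0%, with 197 non-coding probes at an unadjusted p under 0.05) and 0 to 249 without an array (0% to 20.5%). Replicate numbers did not pair the arrays (correlations of deviations 0.07, 0.03 and −0.06). Under the settings run for single probes (not treat, the intensity trend or the brightest probe), called probes kept their direction except with the processed signal, relative to all probes: 2810025M15Rik (−0.51 and −0.39), Peg13 (−0.25) and Snhg3 (−0.50) in TIA1 KO, and Hmga2-ps1 (0.38), H2-K2 probe 1 (0.12) and Snhg3 (0.0199) between the knockouts. The cause was not tested. Signal limits the rest: 601 of 1137 probes were dim everywhere.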
